A study of Rattus norvegicus with 20 samples.

Results

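Gene expression in foetal rat testes after exposure to a compound labelled only EHO was compared with that after corn oil, the vehicle. The members were the 4 arrays titled EHO and the 4 titled Control, 8 of the 20 arrays in the series. They were read over the 17863 of 41012 probes that the scanner software marked as well above background on all 8 arrays, because EHO 1 and EHO 2 were dim. Pregnant Han Wistar dams were gavaged once a day from gestation day 12 to day 19 with EHO at 500 mg/kg, and the control dams received corn oil. The other arrays of the series, 4 for each compound, came from dams given TOTM, DEHP or MEHP at the same dose by mass and on the same days. TOTM is tris(2-ethylhexyl) trimellitate, a plasticizer. DEHP is the phthalate diester of 2-ethylhexanol, and MEHP is its monoester. EHO was tested against DEHP, and the levels under all 3 are used to show where the EHO or control arrays stood apart. Each array held RNA from pooled testes of at least 3 male pups of 1 litter (6 testes), of which 700 ng was labelled with Cy3. An array therefore stands for a litter, and single pups were not resolved. Each group of 4 arrays was hybridised on a slide of its own, which means that an effect of the slide and one of EHO cannot be told apart.

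The foetal testis holds seminiferous cords, in which Sertoli cells surround the germ cells called gonocytes, and an interstitium with Leydig cells, peritubular myoid cells, vessels and macrophages. Foetal Leydig cells take up or synthesise cholesterol, move it into mitochondria and convert it to androgens, which masculinise the male tract. They also secrete INSL3, which drives the first phase of testis descent. Phthalate esters such as DEHP are known in the rat to lower Leydig cell steroid and sterol genes during this window. The labelled tissue was borne out by its markers. The Sertoli hormone gene Amh had a mean log2 level of 3.62 ± 0.28 on EHO arrays and 3.59 ± 0.28 on control arrays (SD, n = 4 each), where 0 is the 75th percentile of an array's member probes. The germ cell helicase gene Ddx4 lay at 0.27 ± 0.25 on EHO arrays and 0.34 ± 0.17 on control arrays, and neither gene passed the test. In whole testes fewer cells of a type and less RNA per cell cannot be told apart.

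The EHO arrays were dimmer than the others of the series. Between 46.1% and 63.5% of probes were well above background on EHO arrays, against 65.7% to 79.8% on control arrays. A spiked-in viral transcript that every labelling reaction received read 11160 to 12300 intensity units on EHO arrays and 3619 to 7191 on control arrays. Relative to the 75th percentile of the member probes it stood at 11.3 to 12.2 on EHO arrays and 3.06 to 5.59 on control arrays. On the control slide 389 bright spots were marked as non-uniform on all 4 arrays, and 0 were so marked on all 4 EHO arrays. Marked spots were set aside, which left 15000 genes with at least 2 values in each group, and 8609 of them carry a gene symbol. All 28 pairs of the 8 arrays differed by 1.91 to 5.29 times the noise between repeated spots, so none of these 8 was a duplicate of another. Control 2 stood apart from the other controls, by 3.87 to 4.30 times that noise, while those differed among themselves by 1.91 to 2.03 times. The array of the series nearest to control 2 was MEHP 3, at 1.30 times that noise. Why control 2 stood apart was not tested. Outside the 8, MEHP 1 and MEHP 2 differed by only 0.769 times that noise, so they may not be separate litters.

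Between EHO and control arrays 261 of 15000 genes, or 1.74%, differed at an adjusted p under 0.05 (limma, Benjamini-Hochberg over all genes tested). Of these, 146 genes (0.973%) were higher with EHO and 115 (0.767%) were lower, with log2 differences of 0.50 to 3.38 in size. A difference of at least 2-fold was seen for 62 of them, 40 higher and 22 lower. At an unadjusted p under 0.05 there were 3807 genes, against 750 for an even spread of p-values, and 2690 of the 3807 were lower with EHO. The 4 EHO values and the 4 control values did not overlap for 2405 genes (16%), of which 875 (5.83%) were higher and 1530 (10.2%) lower. All 261 called genes were among them. Of all genes tested, 63.7% had a lower mean with EHO.

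The calls lie close to the threshold, and their number fell when any array was left out. Leaving out any 1 array left between 1 and 75 calls, the fewest without EHO 1, EHO 2 or control 1 and the most without control 2. Leaving out the dim arrays EHO 1 and EHO 2 together left 0 calls by limma, with 1892 genes at an unadjusted p under 0.05. Whether this comes from single litters or from the smaller number of arrays was not tested. Without EHO 1 and EHO 2 all 261 genes still had at least 50% of their size. Their signs could not change, because in none of them did an EHO value overlap the control values. The share of called genes that were higher was 55.9% with the scaling used here, 85.9% when arrays were scaled to the 75th percentile of all probes, 76.5% with median scaling and 72.9% with quantile normalization. Scaling to all probes moved the median of all genes by 0.16 on the log2 scale, to 0.05, against −0.11 here. All 261 genes kept their sign under the 4 scalings, a weak test, since the smallest called difference was 0.50 in size. Of them, 179 were called under each scaling, 144 higher and 35 lower. The 5000 dimmest genes had a median difference of −0.25, and among them EHO 1 and EHO 2 lay at −0.46 and −0.36 against −0.03 and −0.05 on EHO 3 and EHO 4.

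**Figure D1:**
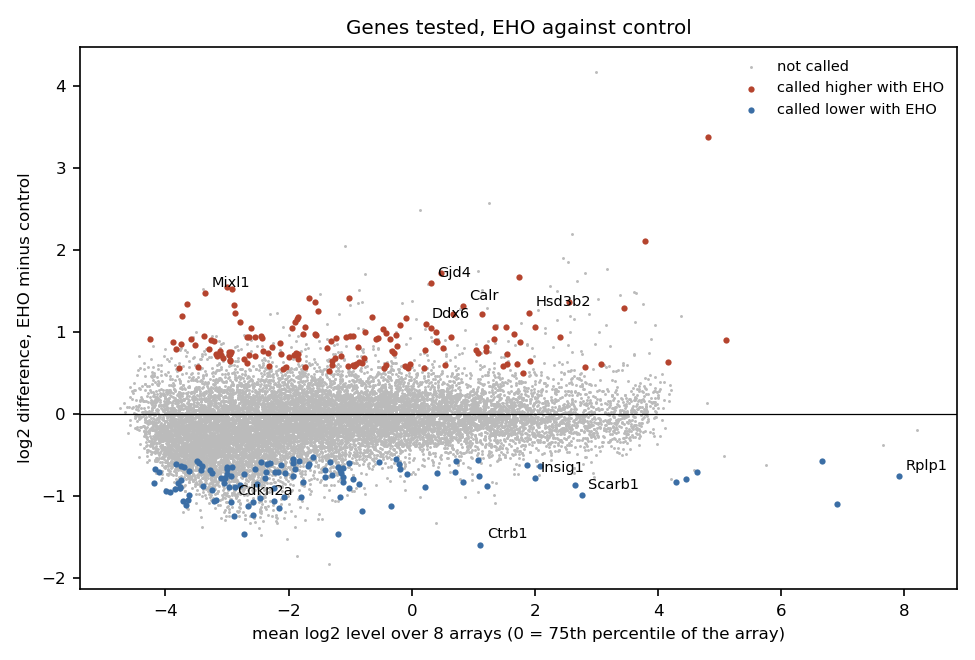
Each point is 1 of 15000 genes, with its mean log2 level over the 8 arrays on the horizontal axis (0 is the 75th percentile of the array) and its log2 difference, EHO minus control, on the vertical axis. Red points are the 146 genes called higher with EHO, blue points the 115 called lower and grey points the rest; the grey cloud sinks below 0 towards the dim end, and some grey points with large differences have a wide spread between arrays.

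Many of the genes called higher have no gene symbol in the tables used here. A symbol was found for 57.4% of the genes tested, for 30 of the 146 called higher (20.5%) and for 63 of the 115 called lower (54.8%). Probes with a curated RefSeq mRNA made up 33.7% of the genes tested, 13% of those called higher and 40% of those called lower. Probes for GenBank mRNAs or expressed sequence tags made up 16.9% of the genes tested, 28.8% of those higher and 10.4% of those lower. The unnamed transcript CD373272 read 1.55, 1.23, 1.52 and 1.02 on EHO 1 to 4, against −0.32, −0.39, −0.41 and −0.42 on control 1 to 4. Its EHO and control values stood clear of each other, and the difference of 1.71 ± 0.14 (SE) had an adjusted p of 0.00428 by limma. AI013718 had the highest difference, 3.38 ± 0.40 (adjusted p = 0.0269), but rested on 2 control values, since its spot was marked on control 2 and control 4. Its EHO values were 7.15, 6.30, 6.14 and 6.40, and its control values were 2.45 and 3.80. Both were singled out after their values were seen.

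In the steroid pathway the sterol uptake receptor gene Scarb1 fell, a 3β-hydroxysteroid dehydrogenase probe rose, and most other members lay below control without passing the test. Of 12 steroidogenesis genes tested, 1 was called higher and 2 lower, beside 0.973% and 0.767% of all genes. Of the 12, 9 lay below control, with a list median of −0.40 against −0.11 for all genes, and over all settings tried this median stayed between −0.44 and −0.25. Scarb1 encodes the receptor through which steroidogenic cells take cholesterol from high-density lipoprotein. It read 2.61, 2.19, 1.91 and 2.38 on EHO 1 to 4, against 3.30, 3.56, 3.06 and 3.14 on control 1 to 4. Every EHO array lay below every control array, and the difference of −0.99 ± 0.17 (SE) had an adjusted p of 0.0391 by limma. A second, dimmer Scarb1 probe differed by −0.40.

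Star encodes the protein that moves cholesterol to the inner mitochondrial membrane, where steroid synthesis begins. Its values were 0.83, 0.71, 0.09 and 0.82 on EHO 1 to 4, and 1.41, 1.10, 1.65 and 1.21 on control 1 to 4. All 4 EHO arrays were below all 4 control arrays, with EHO 3 the lowest by a wide margin, and the difference of −0.73 ± 0.19 had an adjusted p of 0.0818, which misses the threshold. Fdx1, the electron donor of the mitochondrial steroid enzymes, differed by −0.48 ± 0.18 (adjusted p = 0.153) without overlap. Cyp11a1, which cleaves the cholesterol side chain, read 1.02, 1.35, 1.05 and 1.67 on EHO arrays and 1.62, 1.17, 1.96 and 1.59 on control arrays. These groups overlapped, and the difference of −0.31 ± 0.20 had an adjusted p of 0.338. Cyp17a1, the 17-hydroxylase and lyase that leads to androgens, could not be tested, because its spot was marked on all 4 control arrays. On EHO arrays it read 4.46, 4.30, 3.96 and 4.56. The marked spots on control 1 to 4 read 3.21, 3.23, 3.41 and 3.05, below every EHO value. Because these control spots were marked, no difference is stated for Cyp17a1.

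Hsd17b12, a microsomal enzyme that reduces 3-ketoacyl-CoA in fatty acid elongation and can act on 17-ketosteroids, fell with EHO. It read −1.30, −1.49, −1.25 and −1.21 on EHO 1 to 4, against −0.63, −0.56, −0.86 and −0.80 on control 1 to 4. The groups were well apart, by −0.60 ± 0.12 (adjusted p = 0.0467). The call was lost with scaling to all probes (adjusted p = 0.105) and with median scaling (adjusted p = 0.066). The probe matched to Hsd3b2, an enzyme that oxidises and isomerises Δ-5 steroids, rose. It read 3.17, 2.56, 2.40 and 1.97 on EHO arrays and 1.21, 1.21, 1.34 and 1.40 on control arrays. EHO 4 was the lowest of its group and still stood above all controls, and the difference was 1.24 ± 0.22 (adjusted p = 0.0414). The Hsd3b family has near-identical members, so this probe may read more than 1 of them. The luteinising hormone receptor gene Lhcgr was well above background on 1 of 4 EHO arrays and 4 of 4 control arrays, and was not tested.

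**Figure D2:**
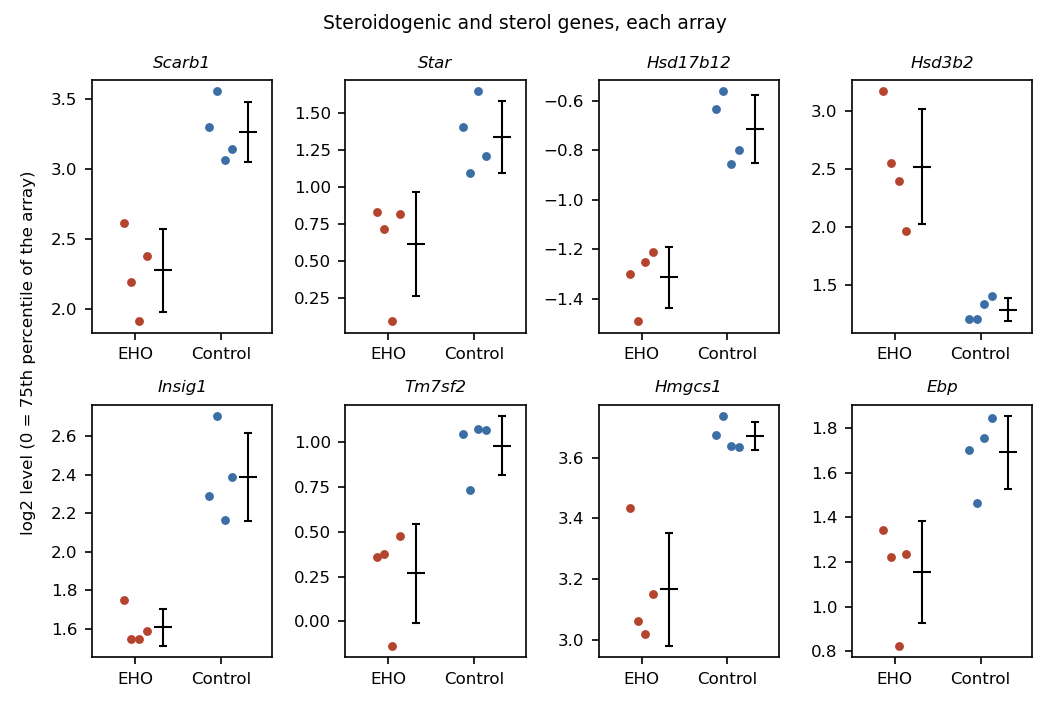
Log2 level (0 is the 75th percentile of the array) of 8 steroidogenic and sterol genes on each of 4 EHO arrays (red) and 4 control arrays (blue), with the mean and SD of each group beside the points; the vertical axes differ between panels. The EHO points lie below the control points in each panel except Hsd3b2, where they lie above; Scarb1, Hsd17b12, Hsd3b2 and Insig1 passed the test, and Star, Tm7sf2, Hmgcs1 and Ebp did not.

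Cholesterol genes lay mostly below control, and 1 of them was called. Of 26 genes of cholesterol synthesis and uptake tested, 0 were called higher and 1 lower by limma, while 23 lay below control, beside 63.7% of all genes. For 6 of the 26 every EHO array lay below every control array, beside 10.2% of all genes. The list median was −0.24 and ranged from −0.32 to −0.08 over the settings tried. Insig1 encodes an endoplasmic reticulum protein that holds back the sterol sensor and is itself a target of the sterol factor SREBP. It read 1.75, 1.55, 1.55 and 1.59 on EHO 1 to 4, against 2.29, 2.70, 2.17 and 2.39 on control 1 to 4. The 4 EHO values were tightly grouped below all controls, and Insig1 fell by 0.78 on the log2 scale (SE 0.14, adjusted p = 0.0391). Its other 3 probes differed by −0.51, −0.56 and −0.998. The call of the main probe was lost with scaling to all probes (adjusted p = 0.0705) and with median scaling (adjusted p = 0.0507).

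Among synthesis enzymes, Hmgcs1, which makes the precursor of mevalonate, had 3.43, 3.06, 3.02 and 3.15 on EHO arrays and 3.68, 3.74, 3.64 and 3.63 on control arrays. EHO 1 came nearest to the controls, and the difference of −0.50 ± 0.12 had an adjusted p of 0.0662. The sterol reductase gene Tm7sf2 differed by −0.71 ± 0.16 (adjusted p = 0.059) and the sterol isomerase gene Ebp by −0.53 ± 0.15 (adjusted p = 0.0857), both without overlap. Cyp51, the lanosterol demethylase, differed by −0.25 ± 0.13 (adjusted p = 0.263). EHO 1 at 0.385 lay just above the control range of 0.204 to 0.381, and the other EHO arrays lay below that range. The fatty acid desaturase gene Scd, another SREBP target, differed by −0.57 ± 0.14 (adjusted p = 0.0654).

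Sterol gene promoters often hold a CCAAT box, which the factor NF-Y binds next to SREBP. The 250 bases before the start of 4 sterol genes without overlap between groups are shown as examples of this feature, from RefSeq on the rat build GRCr8, 5′ to 3′ in the direction of the gene, with CCAAT on either strand (ATTGG on the reverse) in capitals. Insig1 lies at chr4:8057770-8058019 on the minus strand, Tm7sf2 at chr1:212789542-212789791 on the minus strand, Hmgcs1 at chr2:53382054-53382303 on the plus strand and Ebp at chrX:16971212-16971461 on the plus strand.
Insig1: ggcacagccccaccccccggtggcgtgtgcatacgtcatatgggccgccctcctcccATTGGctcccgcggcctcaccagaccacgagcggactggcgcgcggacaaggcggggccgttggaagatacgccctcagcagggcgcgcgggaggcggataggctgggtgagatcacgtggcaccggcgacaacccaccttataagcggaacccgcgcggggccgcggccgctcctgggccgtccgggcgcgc
Tm7sf2: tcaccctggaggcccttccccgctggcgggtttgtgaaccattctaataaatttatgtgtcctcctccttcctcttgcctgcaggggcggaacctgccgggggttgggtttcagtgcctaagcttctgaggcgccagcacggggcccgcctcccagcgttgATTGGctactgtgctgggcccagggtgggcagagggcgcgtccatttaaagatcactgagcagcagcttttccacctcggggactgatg
Hmgcs1: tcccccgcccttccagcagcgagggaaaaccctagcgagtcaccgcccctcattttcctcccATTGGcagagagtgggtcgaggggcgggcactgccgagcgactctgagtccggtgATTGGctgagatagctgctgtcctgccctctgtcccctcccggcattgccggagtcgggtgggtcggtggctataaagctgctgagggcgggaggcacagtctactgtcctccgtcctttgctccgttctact
Ebp: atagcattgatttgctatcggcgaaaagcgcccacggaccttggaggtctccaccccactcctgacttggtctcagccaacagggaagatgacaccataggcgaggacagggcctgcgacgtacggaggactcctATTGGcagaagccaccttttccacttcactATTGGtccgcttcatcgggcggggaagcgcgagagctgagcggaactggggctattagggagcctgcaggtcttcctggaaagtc
The promoters of Insig1 and Tm7sf2 hold 1 match each and those of Hmgcs1 and Ebp hold 2 each. A match was found in 16 of the 20 cholesterol genes with a listed promoter (80.0%), against 36.2% of the 7070 tested genes and 34.0% of 33469 promoters of the same length. Among called genes with a listed promoter, 12 of 27 higher (44.4%) and 21 of 56 lower (37.5%) held one. The longer sterol element TCACNCCAC, searched on both strands, was found in 0 of the 20 cholesterol promoters and in 0.974% of all promoters. It was found in 0 of 27 promoters of genes called higher and in 4 of 56 of genes called lower (7.14%), against 0.948% of the tested genes. These matches describe the letters only and say nothing of binding.

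Other Leydig genes showed no called change. Of 11 foetal Leydig markers other than enzymes, 0 were called by limma, and the list median of −0.06 lay near that of all genes. The summed level of these markers was 22.6 to 29.7 on EHO arrays and 30.5 to 37.4 on control arrays, in units of each array's 75th percentile and with marked spots kept. Such sums are of unlogged levels, so the brightest genes, here Insl3 and Inha, weigh most. Crhr1, the receptor for corticotropin-releasing hormone, which acts on rodent foetal Leydig cells, read −1.25, −2.07, −1.72 and −1.17 on EHO arrays and −0.13, −1.11, −0.47 and −0.55 on control arrays. The groups did not overlap, and the difference of −0.99 ± 0.25 had an adjusted p of 0.0718. The orphan nuclear receptor gene Nr0b1 differed by −0.62 ± 0.14 (adjusted p = 0.0623), also without overlap. The inhibin alpha gene Inha differed by −0.43 ± 0.16 (adjusted p = 0.139). Insl3 read 3.26, 3.33, 3.58 and 3.55 on EHO arrays, against 3.64 and 3.59 on the 2 control arrays whose spot was not marked, and its difference of −0.19 ± 0.16 had an adjusted p of 0.485. With the marked spots kept, the Insl3 difference was −0.48 (adjusted p = 0.148).

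Among called genes with a symbol, those that rose most with EHO were a mixed group. Some genes that missed the test, such as Dusp8 (1.91), rose by more. Gjd4, which encodes a connexin of gap junctions, read 1.52, 0.63, 0.95 and 1.31 on EHO 1 to 4, against −0.82, −1.23, 0.25 and −0.15 on control 1 to 4. The groups did not overlap, control 3 being the highest control, and the difference was 1.59 ± 0.32 (adjusted p = 0.0467). Mixl1, a homeobox gene of the mouse primitive streak, read −2.0, −3.04, −2.91 and −2.51 on EHO arrays and −3.98, −4.52, −4.27 and −3.59 on control arrays. Its difference was 1.48 ± 0.26 (adjusted p = 0.0391), and all its EHO values also lay above those of the 12 arrays of the other 3 compounds. The olfactory receptor gene Or9i1b was higher by 1.34 ± 0.23 (adjusted p = 0.0391).

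Calr encodes calreticulin, a calcium-binding chaperone of the endoplasmic reticulum. It read 2.05, 1.5, 1.19 and 1.24 on EHO 1 to 4, against 0.21, −0.57, 0.60 and 0.47 on control 1 to 4. EHO 1 was the highest array and control 2 the lowest, and the difference of 1.32 ± 0.27 had an adjusted p of 0.0492. Of 21 endoplasmic reticulum chaperone and stress genes tested, Calr was the 1 called, with 0 called lower and a list median of 0.01. Neither of its known partner chaperones passed the test. The oxidoreductase gene Pdia3 differed by 0.49 ± 0.16 (adjusted p = 0.111) and the calnexin gene Canx by −0.77 ± 0.27 (adjusted p = 0.13).

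Ddx6, an RNA helicase of cytoplasmic processing bodies that store and decay mRNA, read 0.93, 0.43, 0.86 and 0.87 on EHO arrays and −0.09, −0.60, −0.17 and −0.40 on control arrays. The difference was 1.09 ± 0.16 (adjusted p = 0.0278), with EHO 2 below the other EHO arrays and still above every control. The other Ddx6 probes did not agree, at 0.73 and −0.16. The protocadherin gene Pcdh7 rose by 1.05 ± 0.20 (adjusted p = 0.0458), the synaptic vesicle gene Sv2b by 1.04 ± 0.19 (adjusted p = 0.0426) and the cardiac actin gene Actc1 by 0.98 ± 0.15 (adjusted p = 0.0298). Shoc2, a scaffold of Ras signalling, rose by 0.95 ± 0.19, the nucleoporin gene Ranbp2 by 0.94 ± 0.18 and Nrep, a gene named for nerve regeneration, by 0.94 ± 0.16. These 3 had adjusted p-values of 0.0467, 0.0467 and 0.035. Of the called genes with a symbol, the 12 with the greatest rise, Hsd3b2 among them, were called under each of the 4 scalings. A call under the scaling used here was a condition of their choice.

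**Figure D3:**
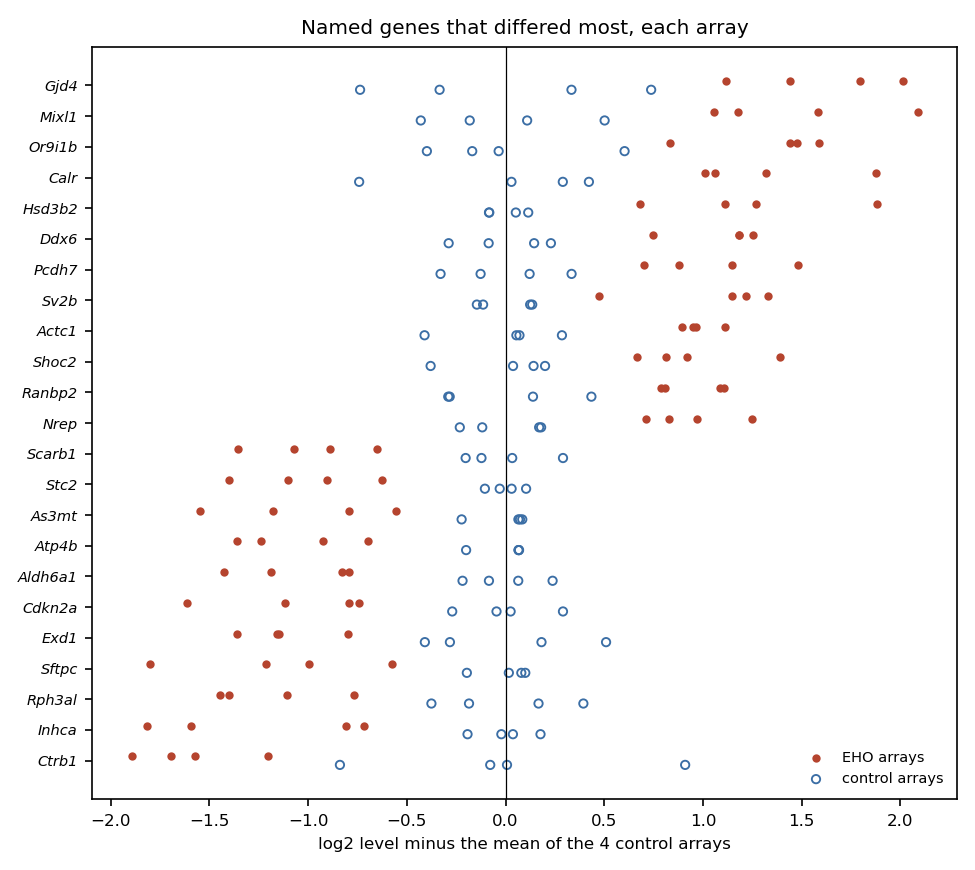
The rows are called genes with a symbol: the 12 that rose most (upper rows) and 11 of those that fell most (lower rows). Each point is the log2 level on 1 array minus the mean of the 4 control arrays. Filled red points are EHO arrays and open blue points control arrays. The groups do not overlap in any row, which was a condition of the choice. Ctrb1 and Gjd4 have the widest control spread.

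Among called genes with a symbol, those that fell most included several known from other organs. Some genes that missed the test, such as the germ cell gene Magea10 (−1.37), fell by more than most of these. Ctrb1, which encodes the pancreatic protease precursor chymotrypsinogen B, read 0.02, 0.34, 0.22 and 0.71 on EHO 1 to 4, against 1.07, 1.92, 1.83 and 2.82 on control 1 to 4. The groups did not overlap, though the controls themselves varied widely, and the difference was −1.59 ± 0.32 (adjusted p = 0.0467). Rph3al, an effector of Rab proteins in exocytosis, read −1.66, −1.32, −1.61 and −0.98 on EHO arrays and 0.18, −0.05, −0.40 and −0.59 on control arrays. It fell by 1.18 on the log2 scale (SE 0.21, adjusted p = 0.0391), with EHO 4 nearest to the controls. The surfactant gene Sftpc differed by −1.15 ± 0.23 (adjusted p = 0.0467), the gastric proton pump gene Atp4b by −1.05 ± 0.16 (adjusted p = 0.0278) and the secreted glycoprotein gene Stc2 by −1.01 ± 0.16 (adjusted p = 0.0338).

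Metabolic and cell cycle genes were also among those that fell. Cdkn2a encodes the cyclin-dependent kinase inhibitor p16 and the p53 regulator Arf. It read −4.02, −3.20, −3.52 and −3.14 on EHO arrays and −2.38, −2.11, −2.45 and −2.67 on control arrays, a dim signal that was clearly separated (−1.07 ± 0.21, adjusted p = 0.0467). It was the 1 gene called among 34 cell cycle genes, whose median difference was −0.02. Aldh6a1, an enzyme of valine breakdown, differed by −1.06 ± 0.17 (adjusted p = 0.0335) and the arsenic methyltransferase gene As3mt by −1.02 ± 0.21 (adjusted p = 0.0467). Without EHO 1 and EHO 2 the As3mt difference was −0.67, a shrinkage of over 1.5 times. Inhca, an inhibitor of carbonic anhydrase, differed by −1.23 ± 0.24 (adjusted p = 0.0467), and Exd1, a factor of the piRNA pathway in mouse, by −1.12 ± 0.21 (adjusted p = 0.0458). Both lost their call under quantile normalization. With normexp background correction and quantile normalization, 14 of the 31 called genes named here had differences over 1.5 times smaller. Aldh6a1 shrank most, to −0.33, As3mt to −0.43, Cdkn2a to −0.43, Exd1 to −0.49 and Inhca to −0.57, and among the genes that rose Mixl1 shrank to 0.71 and Or9i1b to 0.63. The calls of Cdkn2a and Exd1 ended in that setting.

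Some called genes were set apart by the control arrays and not by the EHO arrays. Rplp1, of the large ribosomal subunit, read 7.59, 7.61, 7.41 and 7.56 on EHO 1 to 4, against 8.21, 8.45, 8.29 and 8.23 on control 1 to 4, a difference of −0.76 ± 0.11 (adjusted p = 0.0278). It averaged 7.54 with EHO, 7.65 with DEHP, 7.71 with MEHP and 7.61 with TOTM, against 8.30 with corn oil. The control arrays stood above all 16 others. The same held for the ribosomal gene Rpl13a (−0.57 ± 0.11, adjusted p = 0.0467) and the splicing factor gene Hnrnpa1 (−0.80 ± 0.12, adjusted p = 0.0278). The control arrays also differed in a recorded scan value, the XDR slope. It was 14.68 to 14.91 on control arrays and 10.03 to 10.14 on the 16 others. Whether the scan contributes to the differences of these bright genes was not tested. Rpl13a had an adjusted p of 0.137 when arrays were scaled to all probes, and Rplp1 one of 0.0599. With the marked spots kept, the Rplp1 difference was −0.11 and its call ended. The Hnrnpa1 probe then still differed by −0.80, while a brighter Hnrnpa1 probe differed by −0.47 and its other 2 probes by −0.47 and −0.08. Control arrays lay above all 16 treated arrays for 19 of 15000 genes (0.127%) and below all 16 for 4 genes (0.0267%).

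The reverse pattern was more frequent. EHO arrays lay above all 16 other arrays of the series for 223 genes (1.49%) and below all 16 for 378 genes (2.52%). Among named genes called higher, Mixl1, Pcdh7, Calr, Shoc2, Nrep, Ddx6 and the ribosomal gene Rpl37 (0.75 ± 0.12, adjusted p = 0.0338) were of this kind. Among those called lower, Inhca, Exd1 and Ndufv3, a subunit of respiratory complex I (−0.70 ± 0.14, adjusted p = 0.0467), were of this kind. Scarb1 was not, since it averaged 2.27 with EHO, 1.87 with DEHP and 2.90 with TOTM, against 3.26 on control arrays. The comparisons of this paragraph share the EHO arrays, and the 16 other arrays include both MEHP 1 and MEHP 2.

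Markers of other cells gave no calls, and the erythroid and stromal lists had the highest medians of the lists examined. Of 16 peritubular and interstitial markers tested, 0 were called by limma, 12 lay above control, and the median was 0.36, between 0.23 and 0.52 over the settings tried. Their summed level was 35.5 to 52.6 on EHO arrays and 25.6 to 36.7 on control arrays. Of 42 collagen and matrix genes, 0 were called, 33 lay above control and the median was 0.30. For 7 of the 42 every EHO array lay above every control array, beside 5.83% of all genes. The fibrillar collagen gene Col1a1 read 3.31, 2.99, 2.68 and 3.30 on EHO arrays and 1.72, 1.43, 2.68 and 2.44 on control arrays. EHO 3 and control 3 met at one level, and the difference of 1.0 ± 0.28 had an adjusted p of 0.0876. A dimmer Col1a1 probe differed by 0.94. Its chain partner Col1a2 differed by 0.99 ± 0.28 (adjusted p = 0.0898), but with marked spots kept a brighter Col1a2 probe replaced this one and differed by 0.157 (adjusted p = 0.71). The interstitial markers Nr2f2 differed by 0.43 ± 0.18 (adjusted p = 0.171) and Lum by 0.95 ± 0.31 (adjusted p = 0.113). Whether a different share of stromal cells moved with the steroid genes was not tested.

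Sertoli and germ cell lists gave 0 calls of 20 and 0 of 17 by limma, with medians of −0.11 each, close to that of all genes. The summed Sertoli level was 56.5 to 63.9 on EHO arrays and 49.2 to 58.1 on control arrays, and the summed gonocyte level was 10.7 to 14.8 on EHO arrays and 14.4 to 17.4 on control arrays. Dhh, the hedgehog ligand that Sertoli cells send to Leydig precursors, differed by −0.59 ± 0.17 (adjusted p = 0.0926) without overlap, while a dimmer Dhh probe differed by 0.06. Gdnf, a Sertoli growth factor for germ cells, differed by 1.49 ± 0.56 (adjusted p = 0.149), with control 2 at −0.36 far below the control range of 2.02 to 2.76 of the other 3. Magea10, a germ cell antigen gene, differed by −1.37 ± 0.30 (adjusted p = 0.0549) and the piRNA pathway gene Piwil2 by −0.54 ± 0.14 (adjusted p = 0.0781).

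The remaining lists of cells that a dissection could carry were also without calls. Of the 6 erythroid markers tested, 5 lay above control with a median of 0.46, and their summed level was 11.5 to 25.8 on EHO arrays against 9.3 to 14.1 on control arrays. The beta globin gene Hbb differed by 0.85 ± 0.26 (adjusted p = 0.104). Of 7 adrenal cortex markers, 2 were tested, and both lay below control. They were Cyp11b1, the 11β-hydroxylase, at −1.19 ± 0.30 (adjusted p = 0.0731) and the corticotropin receptor accessory gene Mrap at −0.66 ± 0.17 (adjusted p = 0.0781). The other 5, Mc2r and the aldosterone synthase gene Cyp11b2 among them, were not well above background on all 8 arrays. Medians were −0.24 over 10 macrophage markers, −0.12 over 9 endothelial markers and −0.00199 over 8 mesonephric duct markers.

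**Figure D4:**
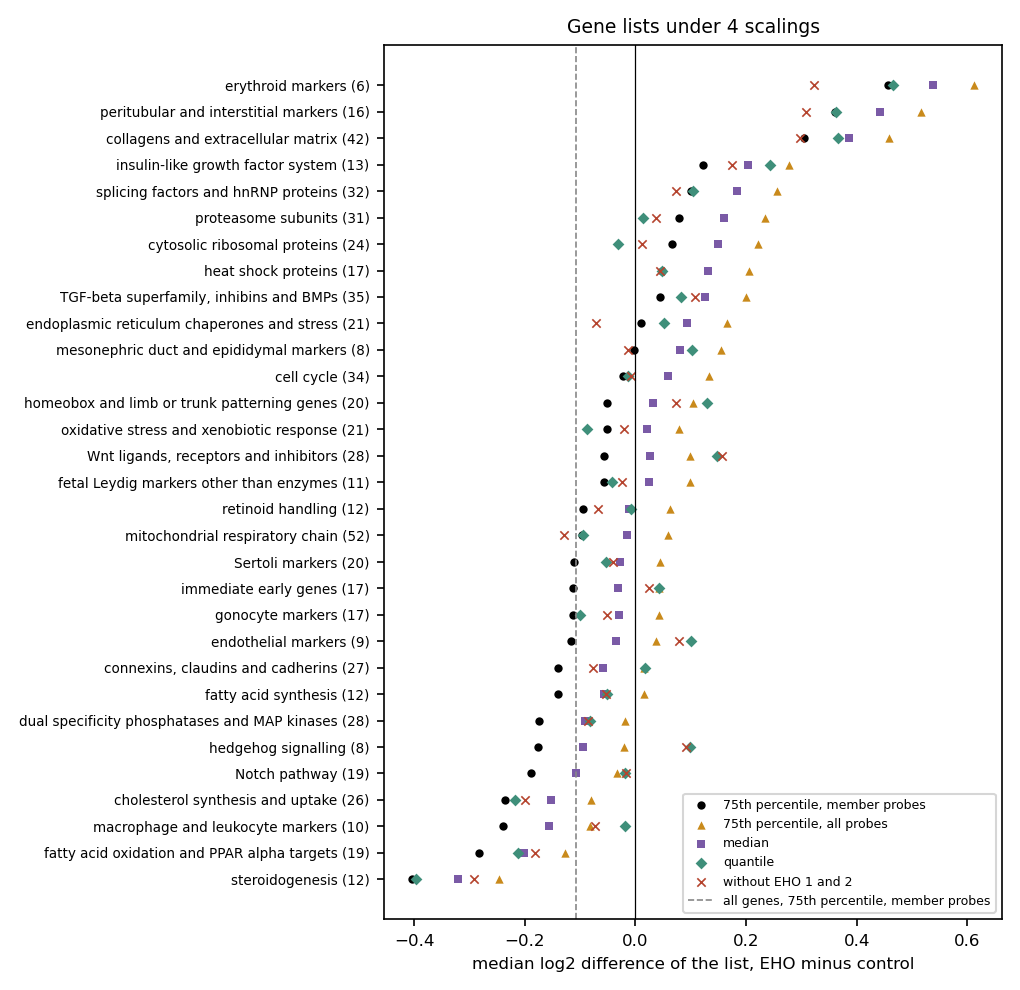
Median log2 difference, EHO minus control, of each gene list (number of genes tested in brackets) under 4 scalings of the arrays and without EHO 1 and EHO 2; the dashed line is the median of all genes, −0.11, under the scaling used here. Steroidogenesis stands lowest and erythroid, peritubular and collagen lists highest under each scaling, while most other lists lie within about the distance that the scalings shift them; the adrenal list with 2 genes is not drawn.

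Energy and stress pathways showed few calls. Of 19 genes of fatty acid oxidation and PPAR alpha targets, 18 had a lower mean with EHO and 0 were called by limma, at a median of −0.28. The fatty acid binding protein gene Fabp3 differed by −0.61 ± 0.15 (adjusted p = 0.0667). Of 52 respiratory chain genes, Ndufv3 and Ndufs8, both of complex I, were called lower, beside 0.767% of all genes, and 37 lay below control, beside 63.7% of all genes. Ndufs8 read −0.55, −0.60, −0.57 and −0.37 on EHO arrays and 0.12, 0.02, 0.06 and −0.11 on control arrays, a small difference of −0.54 ± 0.11 (adjusted p = 0.0472). Scaled to all probes, Ndufs8 had an adjusted p of 0.13 and Ndufv3 one of 0.087, so both calls were lost. Of the cytosolic ribosomal genes, 24 of 72 on the array could be tested, with 1 called higher and 2 lower, beside 0.973% and 0.767% of all genes. The 2 lower were Rplp1 and Rpl13a, which the control arrays set apart. Among 21 oxidative stress and xenobiotic genes 0 were called, and the epoxide hydrolase gene Ephx1 differed by −0.74 ± 0.17 (adjusted p = 0.0632). The hydroxysteroid dehydrogenase gene Akr1c2 differed by −1.26 ± 0.38 (adjusted p = 0.1) and shrank to −0.54 without EHO 1 and EHO 2.

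Several signalling genes lay above every control array on every EHO array without passing the test, some of them by a narrow gap. Dusp8, a phosphatase that switches off MAP kinases, read 3.13, 3.45, 3.32 and 3.75 on EHO 1 to 4, against 2.17, −0.16, 2.16 and 1.87 on control 1 to 4. Control 2 stood far below the other controls, and the difference of 1.91 ± 0.46 had an adjusted p of 0.0662. Without control 2 it was 1.35 and passed (adjusted p = 0.0324). The ligand gene Wnt11 differed by 1.51 ± 0.36 (adjusted p = 0.0654), and by 1.11 without control 2. The Notch target gene Hes7, known from the mouse segmentation clock, differed by 1.45 ± 0.38 (adjusted p = 0.079), and by 1.02 without control 2. For both genes control 2 was again the lowest array. The helix-loop-helix inhibitor gene Id2 differed by 0.94 ± 0.22 (adjusted p = 0.0652). The retinoic acid synthesis gene Aldh1a2 differed by 0.76 ± 0.27 (adjusted p = 0.131) and the growth factor binding protein gene Igfbp5 by 0.76 ± 0.19 (adjusted p = 0.0691). For Aldh1a2 the groups nearly met, at −1.635 on EHO 2 and −1.643 on control 4. The lowest EHO value of Igfbp5 was −0.871, against a highest control value of −0.92.

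Set against DEHP at the same dose by mass, EHO left sterol synthesis genes higher. This was the 1 pair of compounds compared. Probes well above background on all 4 EHO and all 4 DEHP arrays numbered 17889, and of 15307 genes tested 1064 (6.95%) were called, 664 higher with EHO (4.34%) and 400 lower (2.61%). Of 27 cholesterol genes tested, 6 were called higher and 0 lower, 19 lay above DEHP and the median difference was 0.22. The isomerase gene Idi1 read 1.86, 1.58, 1.498 and 1.63 on EHO 1 to 4, against 0.89, 1.05, 0.58 and 0.63 on DEHP 1 to 4. All EHO values were higher, by 0.85 ± 0.14 (adjusted p = 0.00939). Cyp51 read 0.39, −0.05, −0.02 and −0.07 on EHO arrays and −0.70, −0.56, −1.14 and −0.81 on DEHP arrays, again without overlap, a difference of 0.87 ± 0.15 (adjusted p = 0.0148). The sterol demethylation gene Msmo1 was higher by 0.70 ± 0.14, Tm7sf2 by 1.07 ± 0.23 and the squalene epoxidase gene Sqle by 0.60 ± 0.14. Their adjusted p-values were 0.0225, 0.0287 and 0.0322.

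Steroid genes divided between the compounds. Of 13 tested, 1 was called higher with EHO and 2 lower, with a median difference of 0.16. The Hsd3b2 probe was higher with EHO by 1.22 ± 0.22 (adjusted p = 0.0158). Hsd17b12 was lower by 0.53 on the log2 scale (−0.53 ± 0.11, adjusted p = 0.0259), as was Hsd17b3, which makes testosterone (−0.61 ± 0.14, adjusted p = 0.0309). Star read 0.84, 0.72, 0.09 and 0.82 on EHO arrays and 0.00, 0.15, −0.32 and −0.82 on DEHP arrays, with 1 EHO array inside the DEHP range, and the difference of 0.86 ± 0.23 had an adjusted p of 0.0536. For Scarb1 the difference of 0.40 had a 95% interval of 0.00 to 0.80 (adjusted p = 0.181), for Insig1 that of 0.18 had an interval of −0.21 to 0.58 (adjusted p = 0.506), and for Cyp17a1 that of 0.65 had an interval of 0.11 to 1.19 (adjusted p = 0.125). These intervals are for each gene alone, and the misses do not show that the compounds act alike.

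Genes with a large difference from control had these differences from DEHP. Mixl1 was higher with EHO by 1.55 ± 0.22 (adjusted p = 0.00598), Ddx6 by 1.20 ± 0.13 (adjusted p = 0.00359) and Calr by 1.08 ± 0.21 (adjusted p = 0.0209). Of the genes that missed the test against control, Dusp8 was higher than with DEHP by 1.81 ± 0.26 (adjusted p = 0.00601), Wnt11 by 1.57 ± 0.23 (adjusted p = 0.00623) and Hes7 by 1.52 ± 0.20 (adjusted p = 0.0049). Exd1 was lower than with DEHP (−0.99 ± 0.15, adjusted p = 0.00691), and Atp4b was higher than with DEHP by 0.90 ± 0.22 (adjusted p = 0.041). Both comparisons use the same EHO arrays, so these values are not independent.

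**Figure D5:**
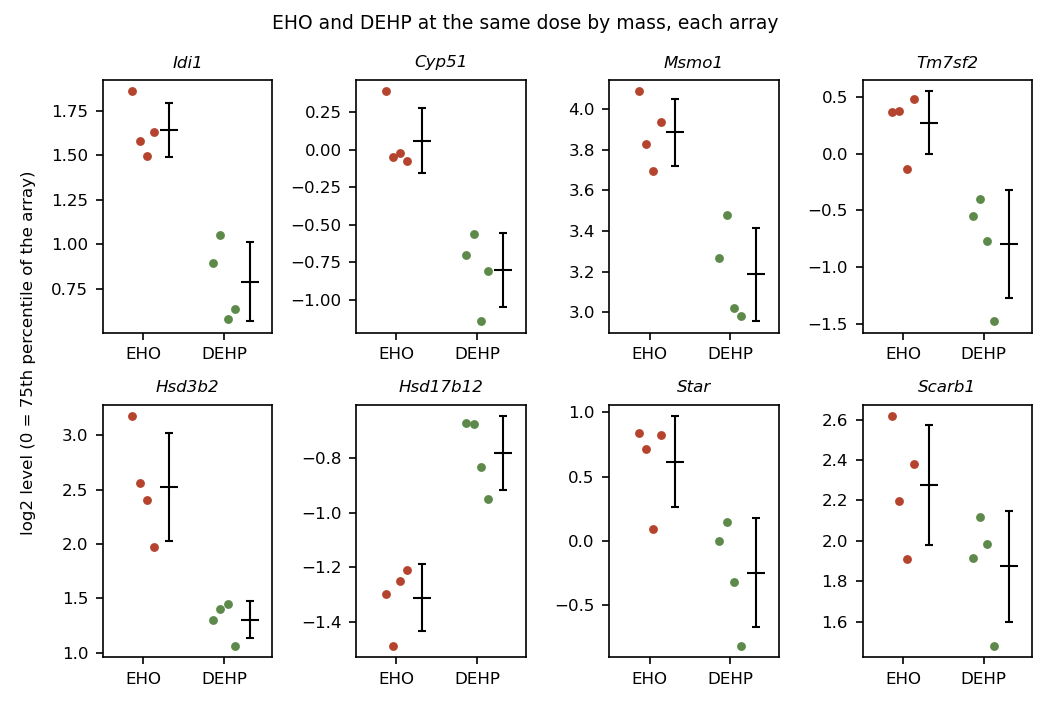
Log2 level (0 is the 75th percentile of the array) of 8 sterol and steroid genes on each of 4 EHO arrays (red) and 4 DEHP arrays (green), with the mean and SD of each group beside the points; the vertical axes differ between panels. Idi1, Cyp51, Msmo1, Tm7sf2 and Hsd3b2 lie higher on EHO arrays and Hsd17b12 lower without overlap, while Star and Scarb1 overlap between the groups.

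The authors' deposited table has a block headed EH, with signed fold changes and p-values, all at or under 0.00999. In the authors' deposited table this block lists 4210 probes, 2813 higher and 1397 lower. Of the 261 genes called here, 189 (72.4%) are listed in the authors' deposited table, each with the same sign. Of all 17863 member probes, 3953 are listed in this block of the authors' deposited table. For Scarb1 the authors' deposited table gives a fold of −2.01, for Insig1 −1.69, for Hsd3b2 2.33 and for Ddx6 2.25. The 189 genes make up 5.98% of the tested genes that the authors' deposited table lists in this block. The labels do not say that EH is EHO, but the other 3 blocks are headed with the names of the other 3 compounds. If EH is EHO, the block rests on the same arrays as the calls here, so the shared signs are not independent support.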

How the data were processed

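Total RNA was hybridised to 1-colour rat arrays. Per the file headers, the deposited intensity values come from Feature Extraction 9.5.3.1 (9.5 in the submitters' processing notes) with probe coordinates on rn4, background-subtracted on each array and not scaled between arrays. For each listed probe the authors deposited a p-value and a score, which is a fold change that carries a sign; the test is not given in the sources used here.

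Deposited intensity values were put on the log2 scale and each array's 75th percentile over member probes was subtracted. Repeated spots were averaged and outlier spots (non-uniform or population flags) set aside. The brightest probe per gene was kept. limma 3.58.1 (R 4.3.3, data.table in version 1.17.8) fitted the 8 arrays of a comparison (6 residual and 3.80 prior degrees of freedom), with Benjamini-Hochberg adjustment and a call at 0.05; the fit was tested on simulated data. Standard errors and p-values cover the spread between litter pools. The number of arrays limits the precision. Named genes were the 12 with the largest called difference each way that have a symbol, with list members and genes fixed in the design. Some of these genes are not reported here. The members and the 32 lists were chosen with earlier results of these data known. 401 member probes had too few unmarked values. RefSeq tables gave symbols for 10897 member probes. Figures were drawn with matplotlib 3.10.9 in Python 3.11.15. Alternatives covered scaling, background, filters, spots, weights, a replicate block and left-out arrays.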

Additional observations from a re-analysis of the deposited data

Results flagged for a closer look

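In 141 sets of 4 arrays, 10 had an array whose gap to its nearest neighbour exceeded the 95% critical share of the range (Dixon), and chance alone marks about 1 in 20 sets. On EHO 3, Star stood at 0.0925 (others 0.71 to 0.83) and Lum at −3.67 (others −2.55 to −2.42). On EHO 1, Cyp51 stood at 0.39 (others −0.08 to −0.02) and Amh at 3.21 (others 3.72 to 3.78). On EHO 2, Ddx6 stood at 0.43 (others 0.86 to 0.94). On control 2, Tm7sf2 stood at 0.73 (others 1.05 to 1.07), Cdkn1b at −1.95 (others −1.36 to −1.29) and Dusp8 at −0.16 (others 1.87 to 2.17). On control 3, As3mt stood at −2.18 (others −1.90 to −1.88), and on control 4, Atp4b stood at −1.91 (others −1.64). These are log2 levels, and each is the array farthest from its group.

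The spiked-in transcript, which no comparison uses, read at least 11160 intensity units on every EHO array. This was above the 3619 to 7191 of the control arrays (exact permutation test, two-sided p = 0.0286, n = 4 each, the smallest p that 4 against 4 allows) and the 3558 to 9646 of the other arrays. The 4 arrays of a group shared a slide, so they are not independent for this technical reading, and the p-value does not measure the spread between slides.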

How the results depend on the processing

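The 261 calls became 625 with scaling to all probes, 446 with median scaling, 616 with quantile normalization, 710 with normexp and quantile, 2514 with all 5 groups in 1 fit, 735 with array weights, 2 of 22460 genes when a probe needed to be above background in at least 1 group, 8 of 35472 without a filter, 62 at 2-fold, 179 when called under all 4 scalings (added after the data were seen), 226 with marked spots kept on the same probes (also added then) and 0 without EHO 1 and EHO 2 (1892 at an unadjusted p under 0.05 in limma). Leaving out 1 array gave 1 to 75 calls: 1 each without EHO 1, EHO 2 or control 1, 2 without control 3, 8 without EHO 3, 14 without control 4, 73 without EHO 4 and 75 without control 2. In the fit of all 5 groups MEHP 1 and MEHP 2 were averaged into 1. With the replicate block limma gave 0 calls (3189 at an unadjusted p under 0.05). Same-numbered arrays deviated together with correlations of −0.52, 0.04, 0.10 and 0.22, so the numbers do not pair the samples. None of the 31 called genes named in the text reversed in the 22 settings run. With arrays left out and the same probe kept, their signs could not turn, since the groups did not overlap. All 31 lost their call under either wider filter, under the block and without EHO 1, EHO 2, EHO 3, control 1 or control 3. Signs turned for Insl3 (0.0732, all probes), for Amh (−0.0517 quantile, −0.0105 normexp, and −0.100 to 0.174 with an array left out) and for Ddx4 (0.0864 all probes, 0.013 median, and −0.174 to 0.0234 with an array left out). Against DEHP, a set of 12 Leydig, steroid and sterol genes written into the design, which is not the set of genes described above, had 3 calls, 5 with scaling to all probes, 1 with the replicate block and 1 to 4 with an array left out. The causes were not tested. Genes dim on the EHO arrays lie outside the 17863 members, and no difference is stated for them.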
